A study of Mus musculus with 8 samples.

Results

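The experiment described here is the response of DENR knockout (KO) cells to interferon-γ (IFNγ). It rests on 4 of the 8 samples of the series, chosen by their labels: 2 samples of DENR KO cells that had received IFNγ (20 ng/ml, 4 h) and 2 samples of untreated DENR KO cells. The other 4 samples, control cells with and without the same treatment, were used only where the responses of both genotypes were set side by side. All samples are MC38, a murine colon adenocarcinoma cell line. DENR, density regulated re-initiation and release factor, is a protein that acts with MCTS1 when ribosomes resume translation after a short upstream open reading frame. The study describes KO lines made with lentiviral Cas9 and single-guide RNAs. The study calls the samples of a group independent, and the labels number the KO samples 1 and 2 without saying whether these come from different guides, clones or cultures, so p-values here measure the spread between these samples, which may be technical.

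IFNγ binds a receptor made of IFNGR1 and IFNGR2, which carry the kinases JAK1 and JAK2. The signal of these kinases reaches gamma-activated sites in the promoters of early target genes such as the transcription factor IRF1, which in turn acts on interferon-stimulated response elements of further genes. Tumor cells respond with antigen presentation, chemokines that attract T cells, immune checkpoint ligands such as PD-L1 and proteins of cell-autonomous defence, while SOCS proteins act as brakes on the pathway.

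Reads on genes came to between 17984061 and 18403790 in the 4 KO libraries and to between 17369020 and 17932340 in the 4 control libraries, and no library stood apart in the share of reads held by its 10 most abundant genes (4.10% to 4.45%). Values below are normalised read counts, that is, whole reads divided by 1 size factor per library computed over the 4 KO libraries together. Denr (ENSMUSG00000023106, chr5:123907175-123928835 of GRCm38), the targeted gene, had 934 and 908 in the untreated and 987 and 998 in the IFNγ-treated KO libraries. On the scale of all 8 libraries, its levels of 915 and 891 (untreated) and 967 and 978 (IFNγ) in the KO libraries lay below those in the control libraries, which had 1407 and 1265 untreated and 1478 and 1441 with IFNγ. The mRNA was lower than in control cells in every KO library and was still present, and the counts do not show whether it encodes an intact protein. Denr did not pass the test for a response to IFNγ (log2 fold change 0.11, adjusted p = 0.43). Of the markers of epithelial colon cells, Epcam, Krt20, Cdx1 and Cdx2 were not listed in either table and Krt8, Krt18, Krt19, Krt7 and Vil1 stayed at a value of 7.19 or less in every KO library, whereas Vim, the mesenchymal intermediate filament gene, lay between 65452 and 74160. The defining transcripts of colon epithelium were thus absent or near 0 in all 4 KO libraries, and the epithelial adhesion gene Cdh1 reached 20.4 at most. Ptprc, Itgam and Lyz2, which define leukocytes and myeloid cells, were at 0 or 1 read in each of the 4 libraries, and of the 14 immune markers searched only Cd68, at 62.1 to 77.9, reached the level needed for a test.

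DENR KO cells answered IFNγ mainly by raising genes. Of 14008 genes whose mean over the 4 libraries reached 10, 560 rose and 119 fell, and 13329 were not called. A call required a Benjamini-Hochberg adjusted p from limma under 0.05 together with a log2 fold change above 0.5 or below −0.5. The genes raised were 4.00% of those tested and the genes lowered 0.850%, and these shares are the background for each list below. The median log2 fold change of all genes tested was −0.01. The rises were also the larger changes: 38 genes rose by more than 4 on the log2 scale, 96 by 2 to 4, 168 by 1 to 2 and 258 by 0.5 to 1. Among the lowered genes, 86 fell by 0.5 to 1, 30 by 1 to 2 and 3 by more than 2. The raised genes together held 1.87% and 1.90% of the reads in the untreated libraries and 4.47% in each IFNγ library. The lowered genes held 0.230% and 0.233% before and 0.145% and 0.141% after treatment. In these bulk libraries, more RNA per cell and more responding cells cannot be told apart.

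Raised calls held more often across settings than lowered calls. With each of the 4 libraries left out in turn, 398 of the 560 raised genes were called in all 4 fits, and so were 25 of the 119 lowered genes. DESeq2 on the recovered reads also called 477 of the raised and 43 of the lowered genes, and edgeR 557 and 113. Without replicate 2 of the IFNγ-treated KO cells the number of lowered genes was 62. The share of raised genes among those called was 82.5%, against 67.9% (501 raised, 237 lowered) on the scales on which the authors deposited their tables, 74.0% (518 and 182) with scaling by total reads and 91.7% (484 and 44) with DESeq2. A mean of at least 100 was found in 424 of the 560 raised and in 64 of the 119 lowered genes.

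**Figure D1:**
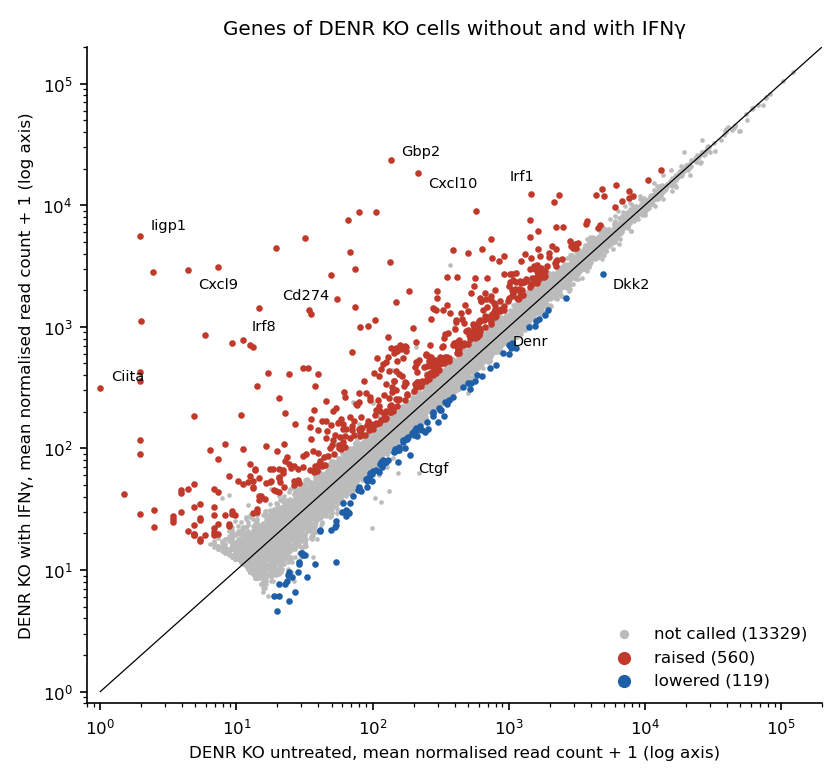
Mean normalised read count plus 1 of each tested gene in the 2 untreated (x axis) and the 2 IFNγ-treated DENR KO libraries (y axis), both on log axes, with the line of equal values; red points are the 560 raised genes, blue points the 119 lowered genes and grey points the rest. The raised genes reach far above the line, with Ciita and Iigp1 near the left edge, while the lowered genes stay close below it and Denr lies on it.

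The receptor and kinase transcripts changed little, apart from Jak2 and Ifnar2. Of 9 receptor and kinase genes tested, 2 rose. Jak2 (chr19:29251828-29313080), the kinase carried by IFNGR2, had 1082 and 1038 in the untreated and 1781 and 1811 in the treated KO libraries. Both treated libraries were above both untreated ones, as in all 560 raised genes, and the rise was 1.69-fold (log2 fold change 0.76, standard error 0.07, adjusted p = 2.8e-13). Ifnar2, a chain of the type I interferon receptor, went from 413 and 429.5 to 638 and 586 (log2 fold change 0.54, adjusted p = 1.4e-05). The ligand-binding chain Ifngr1 had 1178 and 1208 untreated and 1396 and 1394 with IFNγ, a difference of 0.23 on the log2 scale that was under the fold threshold although its adjusted p was 0.018. Both parts of the receptor were thus present before and after treatment. Jak1 was the most abundant of the kinases, with 706 per kilobase with IFNγ against 357 for Jak2, and its log2 fold change was 0.16. Values per kilobase, here and below, use the gene length that the authors deposited. For Cxcl10 and Cxcl1 this length equals the whole genomic span, so rankings between genes are approximate. Ifngr2, Ifnar1, Tyk2, Jak3 and Il10rb were not called either, with log2 fold changes between −0.03 and 0.33.

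Among the genes for STAT proteins, transcription factors that act downstream of cytokine receptors, Stat3 and Stat2 rose, and Stat5a, Stat5b and Stat6 stayed close to their untreated level. Stat3, which is used by the interleukin-6 family, rose from 854 and 984 to 3877 and 3802 (log2 fold change 2.07, adjusted p = 4.8e-30). Stat2, which acts in the type I interferon response, rose from 301 and 283 to 1352 and 1412 (log2 fold change 2.24, adjusted p = 1.4e-27). Stat5a, Stat5b and Stat6 were not called and had log2 fold changes of 0.09, 0.04 and 0.04. Per kilobase of deposited gene length, Stat3 (96.5 untreated and 403 with IFNγ) stayed below Stat6 (743 and 762). Stat4 was listed only with IFNγ, with 11 reads in the KO libraries, too few for a test.

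The transcription factors that IFNγ is known to induce were raised nearly throughout. Of 14 genes tested on a list of interferon regulatory factors and other induced factors, 12 rose, with a median log2 fold change of 1.68 against −0.01 for all genes tested, and the same median with Ciita at the lower bound given below. Irf1 (chr11:53770014-53778374), an early target of the pathway, had 1493 and 1415 in the untreated and 12422 and 12517 in the treated KO libraries. Irf1 was thus well expressed before treatment and was the most abundant factor of the list per kilobase with IFNγ (3136, log2 fold change 3.10, standard error 0.06, adjusted p = 2.5e-41). Irf8, best known from myeloid cells, started at 10.7 and 9.74 and reached 799 and 762, 76.5-fold (log2 fold change 6.12, standard error 0.19, adjusted p = 7.3e-31). Batf2, an AP-1 type factor, rose from 70.0 and 76.0 to 1563 and 1353 (log2 fold change 4.30). Nlrc5, the transactivator of MHC class I genes, rose from 763 and 721 to 5163 and 5334 (log2 fold change 2.82). The factors thus started from very different levels. Ciita, the counterpart of Nlrc5 for MHC class II, had 0 reads in both untreated libraries and 348 and 283 with IFNγ. With a floor of 3 reads over the untreated group this is at least 216-fold higher. Irf9, Irf7, Irf5, Irf2, Cebpd, Bcl6 and Cebpb rose by between 0.74 and 2.31 on the log2 scale. Irf3, which is controlled by phosphorylation, and Fosl2 were not called (−0.11 and 0.23).

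The brakes on the pathway responded in part. Of 18 genes for SOCS proteins, phosphatases, PIAS proteins and other inhibitors, 3 rose and 15 were not called, with a median log2 fold change of 0.04 that was −0.03 on the deposited scales. Socs1, the inhibitor of the IFNγ receptor kinases, had 533 and 572 untreated and 2179 and 2117 with IFNγ (log2 fold change 1.96, standard error 0.07, adjusted p = 3.2e-28). Socs3, which acts mainly on cytokine receptors of the gp130 type, rose from 699.6 and 684 to 1529.7 and 1381 (log2 fold change 1.07). Usp18, a brake on the type I receptor, rose from 15.5 and 23.4 to 65.7 and 48.9 (log2 fold change 1.52, adjusted p = 3.1e-04). For Ptpn1, Ptpn2 and Dusp3 the adjusted p was under 0.05 at log2 fold changes of 0.29, 0.24 and 0.28, under the fold threshold. Pias3, an inhibitor of STAT3, had 778 and 884 untreated and 689 and 639 with IFNγ, with a log2 fold change of −0.32 (adjusted p = 0.0045).

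**Figure D2:**
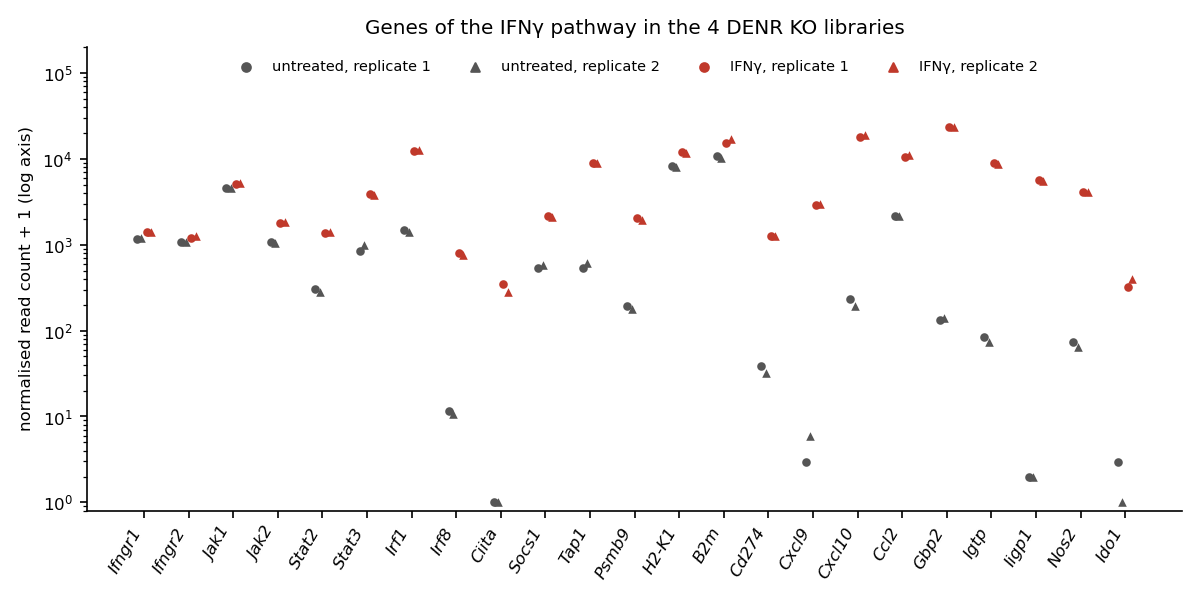
Normalised read count plus 1 (log axis) of 23 genes of the IFNγ pathway in each of the 4 DENR KO libraries, grey for untreated and red for IFNγ, circles for replicate 1 and triangles for replicate 2. The libraries of a group lie close together at all but the lowest counts, and the gap between groups ranges from near none for Ifngr1, Ifngr2 and Jak1 to over 3 decades for Iigp1.

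The guanylate-binding proteins, large GTPases that attack intracellular pathogens, were the list with the highest median log2 fold change in DENR KO cells, 7.40, and all 8 members tested rose. Of these 8, 3 had an untreated mean under 10 and reached the filter only through the treated libraries. The median was 6.87 with a pseudocount of 5 and 7.03 without replicate 2 of the untreated KO cells. Gbp2 was the most abundant member per kilobase after treatment (9274), with normalised counts of 132 and 137 in the untreated and 23265 and 23402 in the treated KO libraries. The replicates were nearly equal within each group and the rise was 173-fold (log2 fold change 7.43, standard error 0.06, adjusted p = 4.5e-56). Gbp4 rose from 15.5 and 21.4 to 4446 and 4504, 242-fold (adjusted p = 3.5e-40). Gbp3 rose from 28.2 and 33.1 to 5201 and 5491, 174-fold (adjusted p = 1.3e-46). Gbp5, a gene of the same chromosome 3 cluster, had 2.91 and 9.74 untreated and 3229.9 and 3027 with IFNγ. Its log2 fold change of 8.91 came with an adjusted p of 0.037, and the call was lost with a replicate block (adjusted p = 0.052) and without the filter on low counts (0.064). Gbp6, Gbp7, Gbp8 and Gbp9 rose by between 3.93 (Gbp8) and 7.39 (Gbp6). Gbp10 was at 0 in both untreated libraries and had 77.0 and 106 with IFNγ, at least 62.7-fold higher, while Gbp2b had no read in the 4 KO libraries and Gbp11 had 4. Some genes of this family are near-identical, above all Gbp6 and Gbp10, and how shared reads were counted is not given, so the division of reads among them is uncertain.

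The immunity-related GTPases, small GTPases that act on vacuoles of intracellular pathogens, rose in all 9 members tested, with a median log2 fold change of 6.80. Another 6 of the 15 genes on the list were not tested. Of the 9, 4 had an untreated mean under 10 and reached the filter only through the treated libraries, where they are high. Iigp1 showed the largest fold change of all named genes. It had 1 read in each untreated library, 2 in all, and values of 5614 and 5479 with IFNγ, 10847 reads in all. The ratio was 5701, with a 95% counting interval of 1578 to 47083 that does not include the spread between cultures. Igtp (Irgm3) rose from 83.6 and 73.0 to 8871 and 8749 (log2 fold change 6.80, standard error 0.08, adjusted p = 5.3e-50) and was, per kilobase, the most abundant of the family after treatment (4357). Irgm2 rose from 73.8 and 56.5 to 7514 and 7721, 117-fold. These regulatory members of the family thus reached levels like that of Iigp1 from a measurable start. Irgm1 rose from 92.3 and 54.5 to 2852 and 3085 (log2 fold change 5.37, adjusted p = 0.025). Tgtp1 had 3 reads in 1 untreated library and none in the other, and 2724 and 2897 with IFNγ. Its ratio was 1927 (95% counting interval 659 to 9345), and its call (adjusted p = 0.047) was lost with a replicate block (0.062), a pseudocount of 0.5 (0.077) or no filter on low counts (0.082), while edgeR gave 2.3e-62. The call of Tgtp1 thus rested on the test, although its treated libraries were far above the untreated ones. Gm12250 (Irgb10) went from 2 reads to 1085 and 1156, a ratio of 1152 (319 to 9519). Ifi47 had far lower counts as assigned here, 3.89 and 2.92 untreated and 43.1 and 46.8 treated (log2 fold change 3.39). The pair 9930111J21Rik1 and 9930111J21Rik2 rose by 1.82 and 1.48. Tgtp1 and Tgtp2, and the 9930111J21Rik pair, are near-identical neighbours, so their shares of the reads are uncertain. The annotated spans of Igtp (chr11:58199556-58207591) and Irgm2 (chr11:58199618-58222782) overlap on the plus strand, so the division of reads between this pair is uncertain too. The annotated plus-strand span of Olfr56 (chr11:48978889-49135387) covers those of Tgtp1 and Tgtp2. Olfr56 itself rose from 13.6 and 9.74 to 683 and 732. The counts of genes inside its span are therefore uncertain as well.

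The promoters of Igtp, Irgm2 and Tgtp1 hold a gamma-activated site and an interferon-stimulated response element side by side. They are shown because both motifs are known from the promoters of genes that interferons induce. Sites were not listed for every immunity-related GTPase, so these 3 are examples and not a count over the family. Promoter sequences were those of RefSeq on GRCm38.p6, from 250 bases before to 50 bases after each gene start. Capitals mark the gamma-activated site, searched as TTCNNNGAA, and the response element, searched as GAAA and GAAA with any 2 bases between them, both on both strands.
Igtp, chr11:58199507-58199535, plus strand: ccatTTCTAGGAActGAAACTGAAAgctg
Irgm2, chr11:58214898-58214926, plus strand: ccatTTCCAGGAActGAAACTGAAAgctg
Tgtp1, chr11:48992310-48992338, minus strand: ccatTTCCAGGAAtcGAAACTGAAAccta
The Igtp and Irgm2 stretches were identical at 28 of 29 bases, Irgm2 and Tgtp1 at 25 and Igtp and Tgtp1 at 24. The first motif letter lay 45, 75 and 88 bases before the RefSeq start used. That start was the RefSeq start nearest to the start of the deposited gene span. For Irgm2, Tgtp1 and Gbp5 it lay inside that span. The search drew on 32 named genes: the pathway genes that the study names except Denr, the 15 highest and the interaction genes. Not all of these were induced, since Jak1, Ifngr1 and Ifngr2 were not called. Of the 21 with a promoter in the table, 9 are shown or listed here with at least 1 match. This counts the genes listed, and the other genes are not thereby shown to lack a match. Irf1 held 1 gamma-activated site and Irf8 held 2, and Cxcl10, Gbp2 and Gbp3 held a response element, which lay on the opposite strand in the latter 2. Gbp5 held 2 gamma-activated sites, of which the one nearer to the start is shown, and a response element on the opposite strand.
Irf1, chr11:53769916-53769940, plus strand: agcctgatTTCCCCGAAatgatgag
Gbp5, chr3:142496874-142496898, plus strand: gccgttatTTCTCAGAAccaagcac
Cxcl10, chr5:92349085-92349110, minus strand: acgctttgGAAAGTGAAActtacctc
Gbp2, chr3:142620596-142620621, plus strand: tcttttagTTTCACTTTCactgtctt
Among all 32851 promoter windows of the table, 8.30% held the gamma-activated site letters and 3.44% those of the response element. Only 9617 of the 14008 genes tested had a window (68.7%), so no share over the raised or lowered genes is given, and a match is a description of letters, not of binding in these cells.

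Of 28 chemokine genes on the list, 13 were tested and 11 of these rose, with a median log2 fold change of 1.91. The other 15 were under the filter or unlisted. Of the 13, 3 had an untreated mean under 10 and reached the filter only through the treated libraries. The ligands of CXCR3, the receptor by which effector T cells find inflamed tissue, had the highest log2 fold changes. Cxcl10 had 235 and 195 in the untreated and 17785 and 18824 in the treated KO libraries (log2 fold change 6.41, standard error 0.07, adjusted p = 2.1e-33). Cxcl9 went from 1.94 and 4.87 to 2860.1 and 3008, 861-fold from a start of 7 reads (log2 fold change 9.46, adjusted p = 8.1e-10). Cxcl11 rose from 5.83 and 1.95 to 175 and 193 (log2 fold change 5.36). Of the 3 ligands, Cxcl10 was the most abundant per kilobase with IFNγ (8128), followed by Cxcl9 (973) and Cxcl11 (48.5). Ccl2, a monocyte attractant, rose from 2146 and 2158 to 10350.4 and 10915 (log2 fold change 2.30) and Ccl7, its neighbour in the genome, by 1.27. Cxcl1, a neutrophil attractant, rose from 488 and 516 to 3835 and 4215, 8.02-fold (adjusted p = 3.3e-37). The membrane-bound chemokines Cx3cl1 and Cxcl16 rose by 1.91 and 1.81. Ccl5 and Ccl8 rose by 1.59 and 1.83 at values under 100, and Cxcl5 from 3 to 59 reads. Ccl9 and Ccl25 were not called.

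Antigen presentation by MHC class I was induced most strongly at the steps that load peptides. Of 11 genes tested, 7 rose. Tap1, a subunit of the peptide transporter, had 538 and 606 in the untreated and 8911 and 8936 in the treated KO libraries (log2 fold change 3.96, standard error 0.06, adjusted p = 4.9e-44). Its partner Tap2 rose from 720.0 and 778 to 3914 and 3453 (log2 fold change 2.29). Tapbp and Tapbpl, the peptide editors tapasin and TAPBPR, rose by 1.47 and 2.36, and Erap1, which trims peptides, by 1.34. The heavy and light chains of class I started from high counts and moved less. H2-K1 rose from 8313 and 8043 to 12056 and 11575 (log2 fold change 0.53, adjusted p = 1.8e-11) and B2m from 10804 and 10158 to 15359.6 and 16762 (log2 fold change 0.62). H2-D1 had 13799 and 13454 untreated and 18075 and 17306 treated, and its log2 fold change of 0.38 was under the fold threshold with an adjusted p of 9.4e-08. The general chaperones Calr, Canx and Pdia3 lay between −0.02 and 0.05 and were not called. Among non-classical class I genes 6 of 8 tested rose, by between 1.07 for H2-M3 and 1.72 for H2-T23, the gene of the NK cell ligand Qa-1. H2 genes are similar in sequence, and the division of reads among them is uncertain.

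The proteasome changed in its inducible subunits. Of 6 genes of the immunoproteasome and its activator, 5 rose, with a median log2 fold change of 1.75. Psmb9 rose from 191 and 179 to 2024 and 1927 (log2 fold change 3.41, standard error 0.09, adjusted p = 4.0e-35). Psmb10 rose from 663 and 618 to 4452 and 4281 (log2 fold change 2.77) and Psmb8 from 829 and 876 to 3831 and 3101 (log2 fold change 2.02). The activator genes Psme1 and Psme2 rose by 0.91 and 1.49. The constitutive catalytic subunits replaced by the inducible ones, Psmb5, Psmb6 and Psmb7, had log2 fold changes of −0.08, 0.05 and 0.10, none of them called. Of 15 constitutive proteasome genes only Psma5 rose, by 0.51 (adjusted p = 3.1e-09). After treatment, per kilobase of deposited gene length, Psmb10 (2561) stood above Psmb7 (419.6), the subunit it replaces. Psmb9 (539.9) stayed below Psmb6 (1160.0) and Psmb8 (1267) below Psmb5 (1696).

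MHC class II genes were near 0 at 4 h. H2-Aa had 0 reads in both untreated libraries and 11 reads over both treated ones, H2-Eb1 0 and 5, and H2-Ab1 0 and 2. Cd74, the invariant chain, had 14.6 and 8.77 untreated and 14.4 and 19.3 with IFNγ and was not called (log2 fold change 0.52, adjusted p = 0.58). Only H2-DMa, which edits class II peptides, rose among the 3 members tested, from 34.0 and 20.5 to 76.0 and 57.0 (log2 fold change 1.29, adjusted p = 9.5e-04). H2-DMb1 was at 0.41, under the fold threshold.

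Among checkpoint and other T cell ligands 6 of 13 tested rose and 1 fell. Cd274 (chr19:29367455-29388095), which encodes PD-L1, had 37.9 and 31.2 in the untreated and 1271 and 1256 in the treated KO libraries. The treated replicates differed little and the rise was 36.6-fold (log2 fold change 5.16, standard error 0.14, adjusted p = 3.0e-34). Fas, a death receptor, rose from 30.1 and 46.8 to 353 and 462 (log2 fold change 3.39). Tnfrsf14, the ligand of the inhibitory receptor BTLA, rose from 102 and 145 to 539 and 483 (log2 fold change 2.06). The adhesion molecules Icam1 and Vcam1 rose by 1.91 and 1.43, Vcam1 to 4238 and 4519, and Icosl by 1.23. Cd47, the signal that restrains phagocytes, had 4766 and 4848 untreated and 6678 and 6799.8 treated, with a log2 fold change of 0.49, just under the threshold. Ceacam1, an inhibitory ligand, fell from 45.7 and 34.1 to 14.4 and 25.4 (log2 fold change −1.004, adjusted p = 0.048), a call at few reads that neither edgeR nor DESeq2 made. Cd276, Nectin2, Pvr and Lgals9 were not called.

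Of 15 metabolic effectors tested, 10 rose. Nos2, the inducible nitric oxide synthase, had 71.9 and 63.3 in the untreated and 4107 and 4067 in the treated KO libraries (log2 fold change 5.90, standard error 0.09, adjusted p = 2.0e-44). Ido1, which degrades tryptophan, went from 2 reads to values of 318 and 396, a ratio of 367 (95% counting interval 101 to 3040), and Ido2 rose by 2.48. Wars, the tryptophanyl-tRNA synthetase, rose from 1475 and 1391 to 7505 and 7524 (log2 fold change 2.39). Acod1, which makes itaconate, rose from 6.80 and 5.84 to 76.0 and 84.5 (log2 fold change 3.47). The tryptophan-degrading enzymes thus rose together with the synthetase that charges tRNA with tryptophan. Gch1, Upp1, Nampt, Lap3 and Ass1, enzymes of cofactor, nucleoside and amino acid metabolism, rose by between 0.67 (Ass1) and 1.41 (Upp1). Asl and Tymp were not called.

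Genes best known from the antiviral type I interferon response rose in 32 of 42 cases tested, with a median log2 fold change of 1.44. Zbp1, a sensor of Z-form nucleic acid, rose from 14.6 and 9.74 to 679 and 673 (log2 fold change 5.71). Rtp4 rose from 8.74 and 17.5 to 328 and 318, and Sp110, Xaf1 and Oasl2 rose by 3.78, 3.62 and 3.46. Samhd1, which depletes the nucleotides that viruses need, rose from 2361 and 2336 to 12134 and 12184 (log2 fold change 2.37). Isg15 rose from 53.4 and 36.0 to 271 and 219 and Ifit1 from 29.1 and 14.6 to 80.1 and 74.3, while Ifit2 was under the fold threshold (0.48) and Mx1 and Mx2 were too low to test. Of 16 PARP family genes with Dtx3l, 9 rose, with the highest log2 fold changes in Parp14 (402 and 381 to 4253 and 4288, 3.44), Parp9 (2.86) and Dtx3l (2.61). Of the Ifi200 family of DNA sensors, 4 of 6 tested rose, with the highest log2 fold change in Ifi203 (153 and 140.3 to 1544 and 1639.9, 3.43), though how reads shared by the similar genes of this cluster were counted is not given. Of 18 TRIM and other ubiquitin ligase genes, 16 rose, among them the antibody receptor Trim21 (2.31) and the very large ligase Rnf213, from 4491 and 5254 to 13692 and 13328.

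A further list of Schlafen, apolipoprotein L, Ly6, complement and other effectors had 18 of 24 members raised. Apol6 rose from 8.74 and 18.5 to 1476 and 1374 (log2 fold change 6.69, adjusted p = 1.9e-04). The unlisted gene BC023105, among the 15 with the highest log2 fold change, went from 2 reads to values of 392.4 and 461, a ratio of 439 (95% counting interval 121 to 3630). Apol10b, Apol9a and Apol9b rose by 3.14, 2.72 and 2.56, the latter pair being near-identical. The complement protease C1s1 rose from 352 and 349.7 to 1575 and 1449.5 and its partner C1ra from 162 and 180.2 to 732 and 657. Of later complement components, C3 rose by 0.86 and C4b went from 2 to 226 reads. The surface proteins Ly6a (Sca-1) and Ly6c1 rose from high levels, Ly6a from 5165 and 4885 to 11772 and 11949 (log2 fold change 1.24). Cfb and C2, of the same cascade, were too low to test.

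Of 25 cell death genes 13 rose, with a median log2 fold change of 0.55. Casp1, Casp4 and Casp12, the inflammatory caspases, rose by 2.56, 2.04 and 1.97, of which Casp4 went from 109 and 92.5 to 369 and 470.3. All 3 lay above the list median. The pore formers Gsdmd and Mlkl each rose by 0.84, and Ripk2 rose from 248 and 313 to 1394 and 1416 (log2 fold change 2.33). Of 22 NF-κB genes 9 rose, and inhibitors and regulators of the IκB type were among them, from 0.86 for Nfkbia to 1.36 for Nfkbiz, as was the deubiquitinase Tnfaip3 (0.89). Of 17 cytokine and cytokine receptor genes tested 10 rose. Il15ra, which presents interleukin-15, rose from 126 and 133 to 822 and 820.5 (log2 fold change 2.65), and its ligand Il15 by 1.57. Il18bp, the decoy for interleukin-18, rose by 1.85 while Il18 itself was not called (26.2 and 18.5 untreated, 23.6 and 26.5 treated). Osmr and Lif, of the interleukin-6 family, rose by 1.86 and 1.47, and Csf1, the most abundant of the cytokine list per kilobase with IFNγ (2487), rose from 7515 and 7795 to 13629.6 and 12642 (log2 fold change 0.78). Fst, the activin antagonist follistatin, rose from 99.1 and 107 to 1109.5 and 1172 (log2 fold change 3.46), the single raised gene of 25 in the TGF-β and activin pathways.

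**Figure D3:**
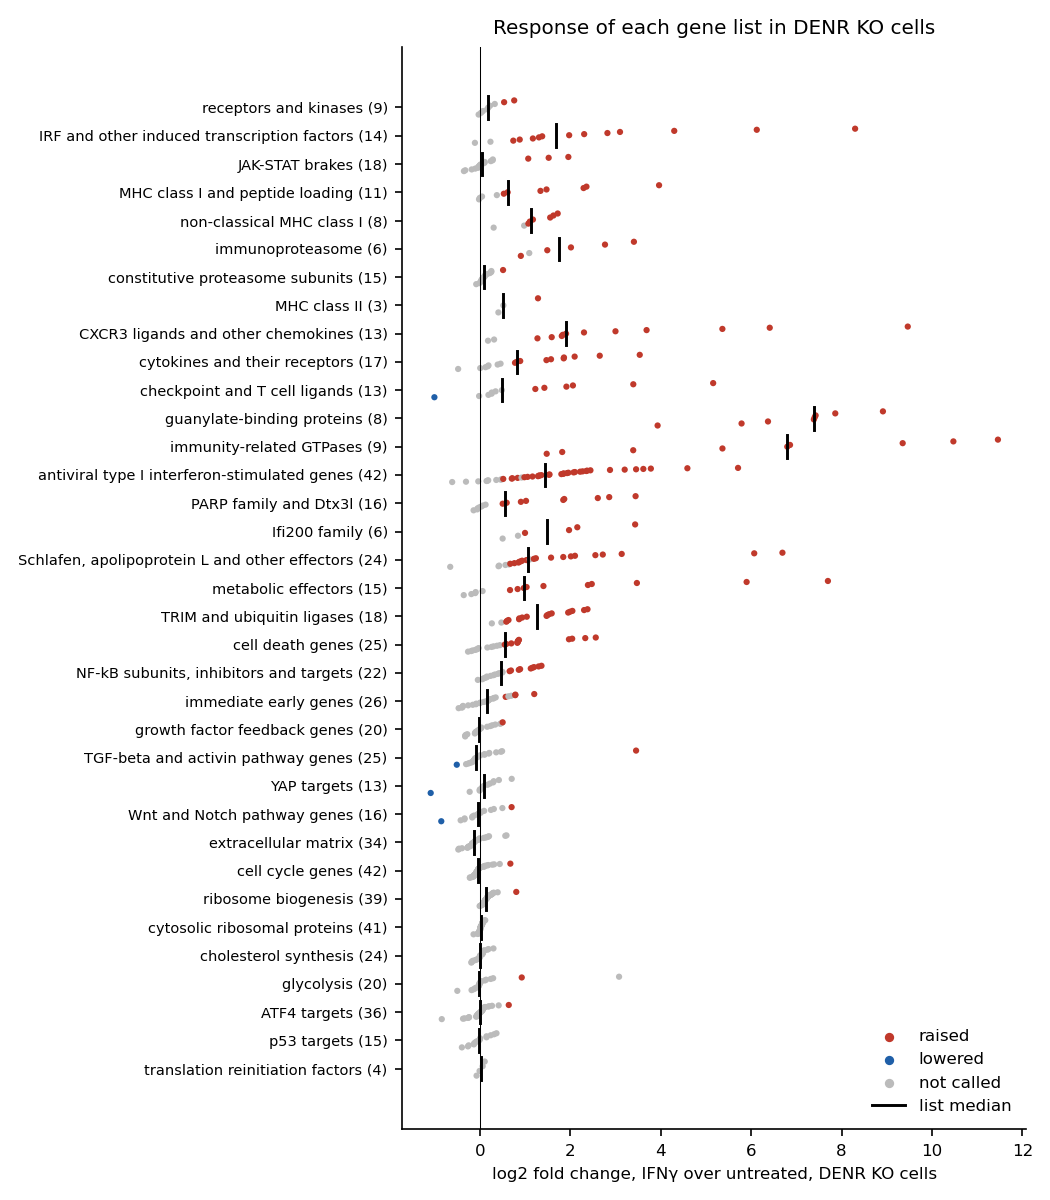
Log2 fold change (IFNγ over untreated, x axis) of each tested gene in DENR KO cells, grouped by list with the number tested in brackets; red points rose, blue points fell, grey points were not called, and the black bar is the list median. The guanylate-binding proteins and immunity-related GTPases lie farthest to the right, with medians of 7.40 and 6.80, and the medians of the lists from growth factor feedback downwards lie around 0.

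Some genes could not enter the test because they had no read in any untreated library of either genotype and so were listed in the IFNγ table alone. Of these, 17 had a mean of at least 10 over the 4 IFNγ libraries, and 13 of them also in the 2 KO libraries. Their KO values are bounded from below with a floor of 3 reads over the untreated group. Gm4841, of the immunity-related GTPases, had 807 and 858 in the treated KO libraries, at least 571-fold higher than untreated. Serpina3f, a serine protease inhibitor, had 742 and 742, at least 508-fold higher. Both were thus strongly expressed after 4 h from no detected read before. The GTPase genes Gm4951 and F830016B08Rik reached 293 and 251 and 279 and 241, at least 186-fold and 178-fold higher, and Gvin1, a very large interferon-inducible GTPase, reached 101 and 83.5 (at least 63.1-fold). Tgtp2, at 39.0 and 44.8, was at least 28.7-fold higher.

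Among the lists of IFNγ-response genes above, Ceacam1 was the only lowered gene. By the rule for named genes, the 15 lowest called genes with a mean of at least 100 fell to between 46.8% and 61.8% of their untreated level. Ctgf, a matricellular target of YAP and TGF-β, had 192 and 183 in the untreated and 84.2 and 91.6 in the treated KO libraries (log2 fold change −1.09, standard error 0.17, adjusted p = 1.7e-06). Abca1, the cholesterol exporter, fell from 162 and 144 to 64.7 and 86.5 (log2 fold change −1.02, adjusted p = 4.4e-05). Of 13 YAP targets tested Ctgf was the only one called, with Cyr61 at 0.22 and Ankrd1 at 0.30. Dkk2, a secreted Wnt antagonist, was the most abundant of the 15 per kilobase before treatment (1322) and fell from 4803 and 4994 to 2642 and 2783 (log2 fold change −0.85, standard error 0.06, adjusted p = 3.0e-17). Its standard error was the smallest of the 15. Bdnf, a neurotrophin, fell from 1009 and 1002 to 571 and 622, and Htra3, a secreted protease, from 1154 and 1089 to 644 and 696 (log2 fold changes −0.75 and −0.74). Transcription factors and cofactors were among the named lowered genes. Mef2c, a MADS-box factor, fell from 339 and 328 to 199 and 165 (log2 fold change −0.88). The homeobox gene Dlx3 fell from 805 and 805 to 533 and 442 (−0.73), and the zinc finger genes Zfp423 and Zfpm1 and the cofactor Lbh had log2 fold changes of −0.79, −0.70 and −0.70. The rest were of mixed kinds, the membrane protein Tmem119 (−0.87), the kinesin light chain Klc4 (−0.84), melanophilin Mlph (−0.81), the receptor Mrgprf (−0.76) and AI464131 (−0.72). For 14 of the 15 the call held without each library in turn and with DESeq2. AI464131 lost it without replicate 1 of the treated cells (adjusted p = 0.15), without replicate 1 of the untreated cells (0.074) and with DESeq2 (0.15). Id2, an inhibitor of differentiation factors, was the single lowered gene among the 25 of the TGF-β and activin pathways (log2 fold change −0.51).

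**Figure D4:**
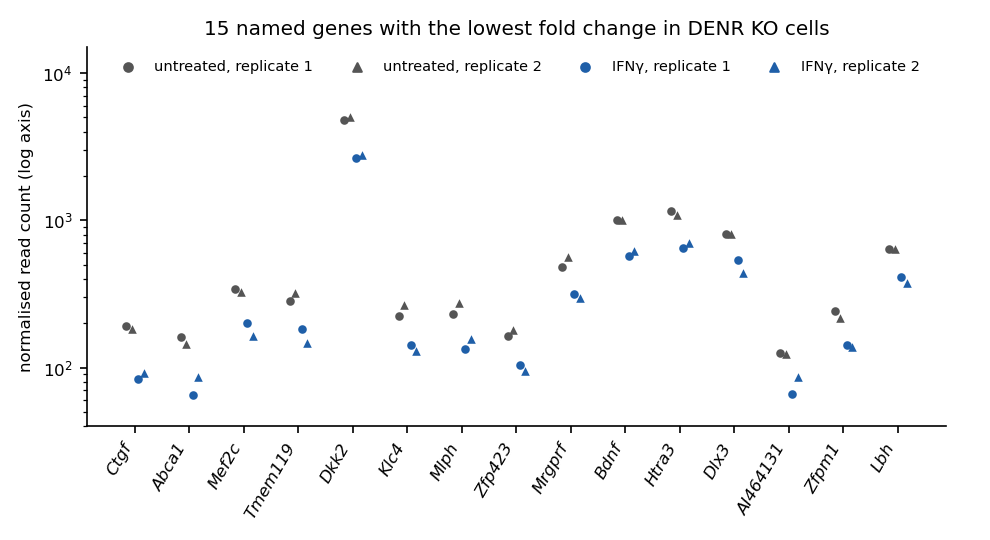
Normalised read count (log axis) in each DENR KO library of the 15 named genes with the lowest log2 fold change, grey for untreated and blue for IFNγ, circles for replicate 1 and triangles for replicate 2. In every gene both treated libraries lie below both untreated ones, which holds for all 119 lowered genes, and the gap is below 1 decade throughout.

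Lists of basic cell programs were read against the background of 4.00% raised and 0.850% lowered, and most held 1 call at most. Of 41 cytosolic ribosomal protein genes none was called by limma, edgeR or DESeq2, 1 had an unadjusted limma p under 0.05 (lower), and the log2 fold changes spanned −0.14 to 0.12. Of 24 cholesterol synthesis genes none was called by the 3 tools, with 3 higher and 2 lower at an unadjusted limma p under 0.05. Of 15 p53 targets none was called by the 3 tools, with 4 higher and 2 lower at that level. The medians of these 3 lists lay between −0.01 and 0.02. Among 42 cell cycle genes only Cdk6 was called, raised from 5821 and 6198 to 9526 and 9657 (log2 fold change 0.68). Among 36 ATF4 targets only Slc7a11, the cystine transporter, was called (0.64). Of 26 immediate early genes 4 rose (15.4%): Zfp36, Ier5, Atf3 and Junb by 1.203, 0.79, 0.78 and 0.57. In glycolysis Hk2 rose from 1855 and 2116 to 3845 and 3692 (log2 fold change 0.93). Gapdh had 362 and 371 in the untreated and 4206 and 2294 in the treated KO libraries. It was not called by limma (log2 fold change 3.08, adjusted p = 0.094) or edgeR (adjusted p = 0.12), and DESeq2 called it raised (adjusted p = 3.7e-12). On the scale of all 8 libraries it was also high in 1 untreated control library (4144) and between 357 and 421 in the other 3 control libraries. The genome holds many processed copies of this gene, and its count is uncertain. A pair of lists leaned to 1 side with few calls. In ribosome biogenesis 38 of 39 genes were higher with IFNγ, at a median log2 fold change of 0.14 that ranged from 0.07 on the deposited scales to 0.15 over the alternatives, and only Noc4l was called (0.81). In the extracellular matrix list 7 of 34 genes were higher, at a median log2 fold change of −0.13 (−0.20 to −0.08 over the alternatives), with 16 lower and 5 higher at an unadjusted limma p under 0.05 and none called by limma, edgeR or DESeq2. Acta2, smooth muscle actin, was the only marker of the fibroblast and endothelial list to be called, raised from 111 and 100.3 to 198 and 209.7 (0.95), while Pdgfra was at −0.04. Of the genes for the partner and a relative of DENR in re-initiation, Mcts1, Mcts2 and Eif2d were not called by limma, edgeR or DESeq2 (log2 fold changes −0.07, 0.06 and −0.01).

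The same test in control cells, which share no sample with the KO comparison, called 728 of 13954 genes raised (5.22%) and 259 lowered (1.86%). Among 13761 genes tested in both genotypes, 554 were raised in KO cells and 712 in control cells, of which 505 were shared, 91.2% of the KO list and 70.9% of the control list. Of the lowered genes, 114 in KO and 258 in control cells, 69 were shared, 60.5% and 26.7% of the lists. The 207 genes called raised in control cells alone had a median log2 fold change of 0.40 in KO cells against 0.64 in control cells, 199 of them with the same sign in both, and 1 of the 207 differed between genotypes in the test of the difference itself. The 49 genes called raised in KO cells alone had medians of 0.81 (KO) and 0.35 (control), and 1 of them was higher in the test of the difference. The 45 genes called lowered in KO cells alone had medians of −0.78 (KO) and −0.38 (control). A call in 1 genotype alone was thus seldom a difference that passed its own test.

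The difference between the responses was tested as an interaction over all 8 libraries. Of 13999 genes, 62 had a lower response in KO cells (0.443%) and 3 a higher one (0.0214%), against 479 lower and 323 higher at an unadjusted p under 0.05. The number of lower genes was 35 without replicate 2 of the IFNγ-treated control cells and 38 without replicate 1 of the untreated KO cells, and the number of higher genes ran from 1 (without replicate 2 of the treated KO cells) to 11 (without replicate 1 of the untreated control cells), with 8 and 9 without replicate 1 of the treated and replicate 2 of the untreated control cells. Of the 505 genes raised in both genotypes, 59 were among those with a lower response, and the medians of the 505 were 1.17 in KO and 1.44 in control cells. The values that follow are on the scale of all 8 libraries.

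Wars had the smallest adjusted p. It had 1446 and 1365 untreated and 7348 and 7376 with IFNγ in KO cells, and 1411 and 1339.9 and 13809.9 and 13893 in control cells. Its response was 2.39 in KO and 3.33 in control cells, a difference of −0.94 on the log2 scale (standard error 0.08, adjusted p = 4.5e-07). Cxcl10 had 231 and 191 untreated and 17413 and 18453 with IFNγ in KO cells, and 217 and 215 and 40789 and 43451 in control cells. The difference of its responses was −1.19 (standard error 0.10, adjusted p = 1.0e-06), that is, 6.41 against 7.600. Irf8 had 10.5 and 9.56 untreated and 783 and 747 with IFNγ in KO cells, and 2.93 and 1.99 and 1378 and 1222 in control cells. Its difference was −2.44 (standard error 0.29, adjusted p = 2.8e-05). With so few untreated control reads, the size of this difference depends in part on the pseudocount of 1. The KO libraries were the higher ones untreated and the lower ones with IFNγ. Acod1 showed the same order, with 6.67 and 5.74 untreated and 74.4 and 82.8 with IFNγ in KO cells, and 0 and 0.996 and 178 and 138 in control cells. Its fitted difference of −3.33 (adjusted p = 0.0037) depends on the pseudocount of 1, since the untreated control libraries held 1 read. Of the 11 named genes with the smallest adjusted p, the last 4 were tied at 2.8e-05 (C1s1, Irf8, Cxcl1 and Enc1). The other genes of interferon lists among the 11, Igtp, C1s1, Cxcl1, Parp14 and Cx3cl1, had differences between −1.07 (Igtp) and −0.73 (Cx3cl1). Of the upstream factors, Irf1 (−0.58, adjusted p = 1.3e-04), Stat3 (−0.61, adjusted p = 0.0015) and Socs1 (−0.76, adjusted p = 3.3e-04) had a lower response in KO cells.

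A trio of genes outside the interferon lists were also among the 11: Tubb3, a neuronal tubulin, Cep85, a centrosome protein, and Enc1, a Kelch-like actin-binding protein. Tubb3 rose in KO cells from 6208 and 6079.7 to 14803 and 14766 on the scale of the 4 KO libraries, and its responses were 1.26 in KO and 1.96 in control cells (adjusted p = 4.3e-06). For Cep85 they were 1.17 and 2.01, and for Enc1 1.497 and 2.20.

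Other strongly induced genes did not pass the test of the difference. Iigp1 had 0.95 and 0.96 untreated and 5497 and 5371 with IFNγ in KO cells, and 2.93 and 2.99 and 11369 and 11605 in control cells, and with so few untreated reads the fitted difference of −0.06 (standard error 0.21) depends on the pseudocount. The treated KO libraries thus held fewer Iigp1 reads than the treated control libraries without a difference in response that passed the test. For Jak2 the difference was −0.20 (standard error 0.10, adjusted p = 0.92). For Cd274 it was −0.43 (standard error 0.18, limma interaction adjusted p = 0.74, unadjusted p = 0.029). Cd274 had 37.2 and 30.6 untreated and 1244 and 1231 with IFNγ in KO cells. In control cells it had 49.9 and 40.8 untreated and 2182 and 2235 with IFNγ. The treated KO libraries thus held less Cd274 mRNA than the treated control libraries. Cxcl9 had 1.91 and 4.78 untreated and 2800.3 and 2949 with IFNγ in KO cells, and 3.91 and 0 and 6695 and 7482 in control cells, and its difference of −2.19 had a standard error of 1.22. A p that misses the threshold does not show equal responses. By list, the median response in KO and control cells was 7.39 and 7.89 for guanylate-binding proteins (2 of 8 members with a lower response), 6.80 and 7.25 for immunity-related GTPases (1 of 9), 1.90 and 2.76 for chemokines (5 of 13), 1.68 and 2.29 for the induced transcription factors (5 of 14), 0.61 and 0.85 for MHC class I loading (2 of 11) and 1.44 and 1.79 for the antiviral genes (1 of 42). For cytokines and their receptors the KO median was the higher one, 0.81 against 0.65 (1 of 17 members with a lower response), although the median of the differences of the 17 genes was −0.08.

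Among the lowered genes few differences passed the test. Dkk2 fell less in KO cells, by 0.85 against 1.24 on the log2 scale (difference 0.39, standard error 0.08, adjusted p = 0.019). It was 1 of the 3 genes with a higher signed response, beside the processed pseudogene Gm4540 and an unnamed locus. The 69 genes lowered in both genotypes had medians of −0.64 in KO and −0.94 in control cells, and 1 of them passed the test of the difference. Klc4, named above, had responses of −0.84 in KO and 0.01 in control cells (difference −0.85, standard error 0.20, interaction adjusted p = 0.065). Tmem119 had −0.87 and −1.60 (difference 0.73, standard error 0.21, interaction adjusted p = 0.23), and neither gene passed. Ggcx, the vitamin K-dependent carboxylase, chosen after its values were seen like Gm4540, moved in opposite directions: it had 58.1 and 45.9 untreated and 9.05 and 11.97 with IFNγ in KO cells, and 11.7 and 9.96 and 28.4 and 24.8 in control cells (difference −3.43, standard error 0.52, adjusted p = 6.2e-04), at values under 60 in all 8 libraries.

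**Figure D5:**
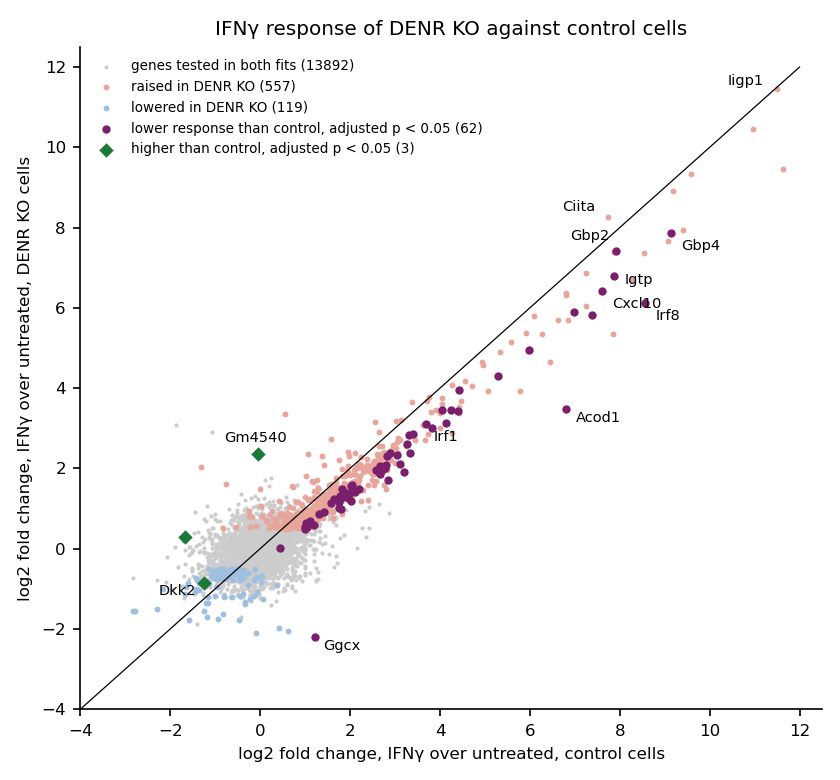
Log2 fold change (IFNγ over untreated) of each gene in control cells (x axis) and DENR KO cells (y axis) in the fit over all 8 libraries, with the line of equal responses; purple points are the 62 genes with a lower and green diamonds the 3 with a higher response in KO cells at an adjusted p under 0.05. The purple points lie below the line, most of them among raised genes, with Acod1 and Ggcx farthest from it, while Iigp1 lies near it.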

How the data were processed

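RNA-seq of poly-A RNA was made from 8 samples, of which the 4 of DENR KO cells enter the main comparison. The authors deposited 2 tables, one per treatment, whose values are a signal per gene, the read count divided by a DESeq2 size factor per library. The submitters' processing notes name HISAT2 2.0.5, featureCounts 1.5.0-p3, StringTie 1.3.3b and DESeq2 1.20.0. They name the mm9 build, while 95.6% of the 23619 Ensembl identifiers found in the GENCODE M21 annotation lie at their GRCm38 positions. GRCm38 coordinates are therefore used. The authors also deposited the log2 fold change, p-value and adjusted p-value of their own comparison of KO with control cells within a treatment, and these columns were not used. How strand and shared reads were counted is not given in the sources used here.

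Reads were recovered by dividing each column by its smallest positive value, which gave whole numbers for 100% of values within a tolerance of 0.0001. Tables were joined on gene identifiers (20432 genes in both, 1710 in the IFNγ table alone, 1856 in the untreated table alone), since each lists only genes with a read. Recovered reads of the 4 KO libraries were scaled together by median-of-ratios size factors. The main test was limma 3.58.1 (R 4.3.3) with intensity trend and robust moderation on log2(value + 1) for genes with a mean of at least 10, with Benjamini-Hochberg adjustment. A gene was called at an adjusted p under 0.05 and a log2 fold change beyond 0.5. Fold changes on the log2(value + 1) scale understate those of low genes. The same fit was made for the control libraries, and the difference of responses was tested as an interaction over all 8. Alternatives were edgeR 4.0.16 and DESeq2 1.42.0 on the recovered reads, other scalings, pseudocounts, filters and thresholds, a replicate block and leaving out each library. The code was tested on simulated data. A gene of the pathway is not reported here. Reads on genes came to 17369020 to 18403790 per library. Counting intervals and floors (3 reads) cover counting error only.

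Named genes were the pathway genes that the study names, the 15 called genes with the highest and the 15 with the lowest log2 fold change in KO cells, the 10 with the smallest adjusted p in the interaction (11 with a tie, called and interaction genes only with a mean of at least 100 and a name that is not a Gm or Rik model), and members of the lists, by rank or as the member a list is known for. The members and lists were chosen with earlier results of these data known. Promoter windows were matched for under 80% of the genes tested, so shares over called genes are void.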

Additional observations from a re-analysis of the deposited data

Results flagged for a closer look

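A difference between the genotypes under the same treatment drew attention to 62 genes with a lower IFNγ response in DENR KO than in control cells and to 3 with a higher one, by the interaction test of limma at an adjusted p under 0.05. On the log2 scale, the response of KO cells minus that of control cells was −0.94 for Wars, −1.19 for Cxcl10, −0.70 for Tubb3, −0.84 for Cep85 and −1.07 for Igtp. It was −0.73 for Cx3cl1, −0.81 for Parp14, −0.82 for Cxcl1, −0.998 for C1s1, −0.70 for Enc1 and −2.445 for Irf8. The size of the Irf8 difference rests on few untreated control reads. Of the pathway genes the study names, Irf1 (−0.58) and Stat3 (−0.61) also passed this test. Each of these genes was raised in both genotypes.

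Genes listed in the IFNγ table alone, which the comparison across both tables leaves out, were looked at for signal. Of these, 17 had a mean of at least 10 over the 4 IFNγ libraries and 0 reads in the untreated libraries.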

How the results depend on the processing

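Counts of raised genes kept within 1.5 times of their main value under each change of scaling, test, pseudocount and filter on low counts that was tried. With a log2 fold change beyond 1 in place of 0.5 there were 302 raised and 33 lowered genes in KO cells and 419 and 66 in control cells, and with no fold threshold 1105 and 558, and 1193 and 706. Lowered genes depended on the scale: 237 (KO) and 429 (control) on the deposited scales, 182 and 398 with scaling by total reads, and 44 and 171 with DESeq2. The deposited scales moved the median of all genes by −0.07 in KO and −0.08 in control cells. Without 1 library at a time, there were 478 to 589 raised and 62 to 120 lowered genes in KO cells, 706 to 775 and 248 to 327 in control cells, 35 to 83 genes with a lower response in KO cells and 1 to 11 with a higher one, where the lone sample of a group was assumed to vary like the others. DESeq2 called 5 genes with a higher response.

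Samples of a genotype that share a number deviated together only weakly (r = 0.03 over 10444 genes in KO, 0.23 over 10388 in control cells), so the numbers were not taken as pairs. With a replicate block there were 558 raised and 118 lowered genes in KO cells, 744 and 267 in control cells, and 108 genes with a lower and 15 with a higher response in KO cells.

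Of the named genes, 808 values of the response stayed on their side of the threshold and 8 lost the call, those of Tgtp1, Gbp5 and AI464131 given above. The difference of responses changed sign for Denr with scaling by total reads (0.0026). Without 1 library at a time it ran from −0.098 to 0.056 for Denr and from −0.17 to 0.030 for Ifngr1, positive without replicate 2 (Denr) or replicate 1 (Ifngr1) of the untreated control cells. None of these values passed the threshold. Of the median responses of lists in KO cells, 81 values over 35 lists moved by more than the replicate spread or 0.05, whichever was larger, and 582 did not, with the largest move in the Ifi200 family (1.49, and 2.16 with a mean of at least 50). The sign of the median changed in 9 lists, none with a median farther than 0.16 from 0. Of the median differences of responses, 43 values over 22 lists moved and 737 did not, most for the immunity-related GTPases (−0.39, and −0.81 without replicate 2 of the untreated control cells). The cause of these changes was not tested.

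Each group holds 2 samples, and low counts limit the estimates: 59 of the 560 raised genes had an untreated mean under 10, and the size of their rise depends on few reads. These 59 reached the filter on low counts only through the treated libraries. Genes at 0 in all untreated libraries have lower bounds only.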
